A study of Homo sapiens with 3 samples.

Results

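The cytosolic chaperonin TRiC, also called CCT, is built from the products of 8 subunit genes, TCP1, CCT2, CCT3, CCT4, CCT5, CCT6A, CCT7 and CCT8. Those 8 genes and CCT6B, the paralog of CCT6A, were followed in Molm13 cells exposed to pyrvinium. The 9 genes were looked up by Entrez identifier and were present in every library, among 25702 genes counted. All 9 had at least 10 counts in at least 1 library, as had 12879 genes in all. The set was chosen from its measured read counts in these same libraries, in which CCT6B and the subunits were already known to differ, so every value of a member is given as a description and none carries a test.

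TRiC is a double-ring machine in which each ring holds 1 copy of each of the 8 subunits. Newly made actin and tubulin chains, and many proteins with WD40 repeats, are folded inside its chamber, and ATP hydrolysis drives the closing of the lid. Prefoldin hands substrates to it and phosducin-like proteins act as cofactors. CCT6B encodes a second zeta subunit, known chiefly from testis, which can take the place of the CCT6A product in the ring.

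Molm13 is an established human line of acute myeloid leukemia and bears the FLT3-ITD form of the receptor kinase FLT3. Pyrvinium is an anthelmintic dye given as its pamoate salt. The first group received the vehicle, dimethyl sulfoxide (DMSO), the second received 50 nM pyrvinium and the third 100 nM pyrvinium, each for 6 h in RPMI medium with fetal bovine serum. One sample label gives the 100 nM dose without its prefix, and the dose of the sample titles was used. Each condition is represented by 1 library, so no difference has a replicate check, and both doses are set against the same DMSO library. The libraries held 22677038 to 24075123 counts in genes, and 15355 to 15685 genes had a read. All 7 myeloid markers examined (CD33, FLT3, MEIS1, HOXA9, LYZ, SPI1 and CEBPA) were counted in each library, with 1346 or more counts in DMSO, while CD3E, EPCAM and GATA1 of other lineages were at 0 throughout. In RNA from a whole culture, fewer cells of a kind and less RNA per cell cannot be told apart.

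CCT6A and CCT6B are the pair of the set whose reads could be confused, and their coding sequences are shown for that reason. Over the 1590 aligned coding bases (main annotated transcripts of GENCODE 44 on GRCh37), 1283 were identical, or 80.69%. The other 35 pairs among the 9 genes had 48.81% to 54.83% identity. Stretches of 60 bases were compared where they held no alignment gap and lay within a single exon of each gene. The stretch in which CCT6A and CCT6B were most alike lies in coding exon 14 of each gene. Capitals mark the 5 bases that differ.
CCT6A, chr7:56130706-56130765, plus strand, hg19: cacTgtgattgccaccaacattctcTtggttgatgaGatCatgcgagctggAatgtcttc
CCT6B, chr17:33255077-33255136, minus strand, hg19: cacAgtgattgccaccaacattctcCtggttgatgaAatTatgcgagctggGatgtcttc
Among the same stretches, the least alike lies in exon 4, with 20 bases that differ, again in capitals.
CCT6A, chr7:56123362-56123421, plus strand, hg19: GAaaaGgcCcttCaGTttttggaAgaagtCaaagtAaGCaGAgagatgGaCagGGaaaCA
CCT6B, chr17:33281514-33281573, minus strand, hg19: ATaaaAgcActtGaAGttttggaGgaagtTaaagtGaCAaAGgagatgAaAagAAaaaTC
The longest run identical in both genes was 29 bases, shorter than a 75-base read. None of the 1824 windows of 75 bases in the counted exons of CCT6B matched a CCT6A window within 3 mismatches, and the fewest mismatches found were 6. The pseudogenes were no closer to CCT6B, with at least 10 mismatches to CCT6P1 and at least 9 to CCT6P3. At the length sequenced, CCT6B was therefore distinct from CCT6A and both pseudogenes.

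The counted exons of each gene were located in hg19. TCP1 (Entrez 6950), the alpha subunit, lies at chr6:160199530-160210735 on the minus strand. CCT2 (10576), the beta subunit, lies at chr12:69979208-69995357 on the plus strand, and CCT3 (7203), the gamma subunit, at chr1:156278752-156308195 on the minus strand. CCT4 (10575), the delta subunit, lies at chr2:62095262-62115791 on the minus strand, and CCT5 (22948), the epsilon subunit, at chr5:10250282-10266501 on the plus strand. CCT6A (908), the zeta subunit, lies at chr7:56119378-56131682 on the plus strand, and CCT7 (10574), the eta subunit, at chr2:73461364-73480150 on the plus strand. CCT8 (10694), the theta subunit, lies at chr21:30428647-30446010 on the minus strand. CCT6B (10693) lies at chr17:33254878-33288528 on the minus strand. The genes are thus spread over 8 chromosomes, and only CCT4 and CCT7 share one.

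The 8 subunit genes were among the most highly counted genes of Molm13, and CCT6B was near the bottom. In DMSO the subunits had 15008 to 21226 counts each and together took up 0.604% of the library, whereas CCT6B had 12 counts. To compare genes, counts were divided by the kilobases of counted exon and by the scaled library size and given in the usual unit, RPKM. On that scale CCT2 was highest in DMSO at 420 and CCT5 lowest of the subunits at 210, a ratio of 2.0, and the coefficient of variation across the 8 subunits was 20.8%. The order in DMSO was CCT2, CCT3, TCP1, CCT8, CCT7, CCT6A, CCT4 and CCT5, and only TCP1 (RPKM 374) and CCT8 (RPKM 364) had counting intervals that overlapped. All intervals here are 95% intervals that cover counting error only. The spread across subunits was nearly the same in the treated libraries, at 20.2% with 50 nM and 21.0% with 100 nM.

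**Figure D1:**
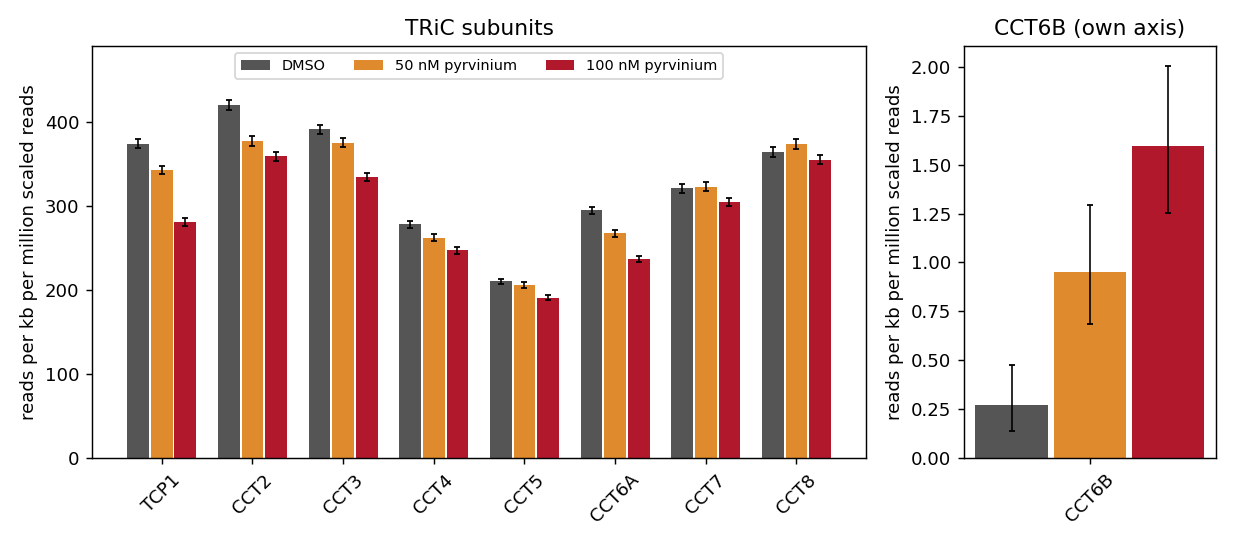
Level of each TRiC subunit gene and of CCT6B, in RPKM (counts scaled by counted exon length and library size), in the DMSO, 50 nM and 100 nM pyrvinium libraries, 1 bar per library. Error bars are 95% Poisson counting intervals, and CCT6B has an axis of its own because its values lie between 0.273 and 1.6, against 191 to 420 for the subunits.

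At 100 nM pyrvinium, all 8 subunit genes were lower than in DMSO, by modest amounts, and TCP1 and CCT6A were the lowest relative to DMSO. The median log2 fold change of the 8 subunits was -0.20, with a range from -0.41 to -0.04, beside a median of -0.0042 over all 12879 genes. All 8 counting intervals lay below 0, which 25.5% of all genes and 43.0% of the 321 genes with at least 10000 counts in DMSO also showed. The second share is the nearer background, since deep counts give narrow intervals, and the median log2 fold change of those 321 genes was -0.0036. Summed over the subunits, 139918 counts in DMSO compared with 130454 at 50 nM and 126219 at 100 nM. The summed log2 fold change was -0.07 for 50 nM, with an interval of -0.083 to -0.061, and -0.21 for 100 nM, with an interval of -0.22 to -0.20. The subunits' share of the library thus went from 0.604% to 0.575% and 0.524%.

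TCP1 encodes the alpha subunit, for which the complex was named. Its counts were 21226 in DMSO, 19072 at 50 nM and 16590 at 100 nM. Both treated libraries were below DMSO, and the 100 nM level was 75.04% of the DMSO level. The log2 fold change was -0.13 (-0.15 to -0.10) for the lower dose and -0.41 (-0.44 to -0.38) for the higher. TCP1 was the only subunit at or below 80% of its DMSO level at 100 nM, a decrease found in 12.8% of all genes. It passed from the 3rd highest RPKM of the set in DMSO (374) to the 5th at 100 nM (281).

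CCT6A encodes the zeta subunit that CCT6B resembles. It had 18148 counts in DMSO and fewer in both treated libraries, 16154 with the lower dose and 15206 with the higher. The resulting log2 fold changes were -0.14 (-0.17 to -0.11) and -0.31 (-0.35 to -0.28), respectively. At 50 nM, TCP1 and CCT6A moved by like amounts, with a log2 ratio between them of 0.01 and an interval of -0.03 to 0.06. At 100 nM the interval excluded 0, with TCP1 lower by 0.10 (ratio -0.10, interval -0.14 to -0.06).

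CCT2 and CCT3 encode the beta and gamma subunits. CCT2 had 18987, 16717 and 16897 counts in the DMSO, 50 nM and 100 nM libraries, with log2 fold changes of -0.15 and -0.23. CCT3 had 18951, 17826 and 16884 counts in the same order, with log2 fold changes of -0.06 and -0.23. The pair therefore stood at like values at 100 nM and at unlike values at 50 nM, where CCT2 had the lowest log2 fold change of the 8 subunits. In CCT2 most of the difference from DMSO was present at 50 nM, and the step from 50 nM to 100 nM was only -0.07.

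CCT4 and CCT5 encode the delta and epsilon subunits. CCT4 had 15008 counts in DMSO, 13877 at 50 nM and 13897 at 100 nM, and log2 fold changes of -0.08 and -0.17. CCT5 had 16549, 15898 and 15637 counts, and log2 fold changes of -0.03 at 50 nM, where the interval of -0.06 to 0.0025 included 0, and -0.14 at 100 nM. Both were lower than DMSO at 100 nM by less than TCP1, CCT6A, CCT2 and CCT3.

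CCT7 and CCT8, the eta and theta subunits, stayed closest to DMSO at 100 nM. CCT7 had 15081, 14876 and 14898 counts, and log2 fold changes of 0.01 (-0.02 to 0.04) and -0.08 (-0.11 to -0.04). CCT8 had 15968, 16034 and 16210 counts, and log2 fold changes of 0.03 (0.0032 to 0.07) and -0.04 (-0.07 to -0.0055). CCT8 was the only subunit whose interval lay above 0 at 50 nM, where 17.9% of all genes lay above 0. Its lower bound of 0.0032 is close to the 0.003 by which other library scalings moved log2 values. The share above 0 among genes with at least 10000 counts was not computed. The subunits therefore did not move by equal amounts at 100 nM: the log2 ratio of TCP1 to CCT8, relative to DMSO, was -0.38 (-0.42 to -0.33), and that of CCT6A to CCT8 was -0.28 (-0.32 to -0.23).

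At 50 nM the subunits differed less from DMSO than at 100 nM. The median log2 fold change was -0.07, with 6 of 8 below 0. Of the 8 intervals, 5 lay below 0, beside 19.2% of all genes and 31.2% of genes with at least 10000 counts in DMSO. The intervals of CCT5 and CCT7 included 0. Set directly against each other, the 100 nM library was lower than the 50 nM library in all 8 subunits, with a median log2 difference of -0.10 and a range from -0.29 for TCP1 to -0.07 for CCT8. The interval of that difference lay below 0 for all 8, beside 13.8% of all genes and 53.6% of those with at least 10000 counts. The 50 nM level lay between DMSO and 100 nM for 6 of 8 subunits (not CCT7 or CCT8), and for 56.4% of all genes. No subunit was lower by 1.5-fold at either dose, a size reached by 3.12% of all genes at 50 nM and 4.29% at 100 nM.

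**Figure D2:**
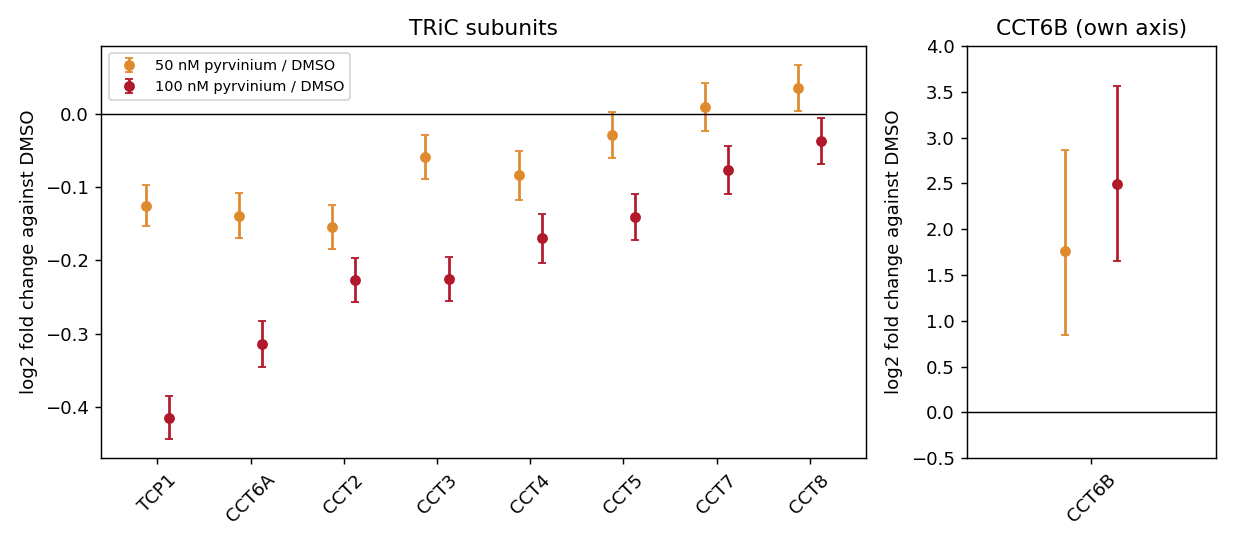
Log2 fold change of the 8 subunit genes and CCT6B against the shared DMSO library at 50 nM and 100 nM pyrvinium, in the order of the 100 nM value, with 95% counting intervals. The subunits lie between -0.41 and 0.03, and CCT6B lies at 1.76 and 2.50.

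CCT6B was higher in both pyrvinium libraries while remaining a small part of the family's RNA. It had 12 counts in DMSO, with a Poisson interval of 6.2 to 21.0. The 50 nM library held 41 counts (29.4 to 55.6), and the 100 nM library held 73 (57.2 to 91.8). Scaled to library size and length, the DMSO interval (RPKM 0.141 to 0.477) lay below both others, while those of 50 nM (0.684 to 1.29) and 100 nM (1.251 to 2.01) overlapped. At the DMSO level, 11.8 counts at 50 nM and 12.5 counts at 100 nM would have been counted at the depths reached. The log2 fold change was 1.76 (0.85 to 2.87) at 50 nM, or 3.39-fold, and 2.50 (1.66 to 3.56) at 100 nM, or 5.65-fold. From 50 nM to 100 nM it was 0.74 (0.17 to 1.33), or 1.67-fold, and 283 of all genes had a larger step, 179 of them among the 1171 genes with 6 to 24 counts in DMSO. The intervals are wide because of the 12 counts in DMSO.

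In RPKM, CCT6B was at 0.273 in DMSO, 0.953 at 50 nM and 1.6 at 100 nM, where 3 counts would correspond to 0.0656 to 0.0697. Of the 12879 genes, 6.13% had a lower RPKM than CCT6B in DMSO, 15.4% at 50 nM and 20.2% at 100 nM. The 8 germ cell markers (DDX4, DAZL, PRM1, PRM2, TNP1, TNP2, ACR and SYCP3) had 1 count in all in DMSO, 0 at 50 nM and 2 at 100 nM. CCT6B was therefore counted in libraries in which these 8 markers were at or near 0, and other transcripts of testis were not examined as a group.

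Genes higher by at least 2-fold made up 1.79% of all genes at 50 nM and 2.84% at 100 nM, and CCT6B was among them at both doses. Because few counts spread the ratios, the nearer background is that group of 1171 genes with similar counts in DMSO. Of these, 7.77% were at least 2-fold higher at 50 nM and 10.8% at 100 nM. Those with fewer than 10 counts in DMSO were kept only if a pyrvinium library reached 10, a filter that favours higher values. At 50 nM, 50 genes had a larger log2 fold change than CCT6B, 6 of them in this group of 1171. At 100 nM, 23.8% of all genes had an interval above 0, 17 genes had a larger log2 fold change than CCT6B, and 0 of these were in the group of 1171. These ranks describe the values on which the gene was selected.

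**Figure D3:**
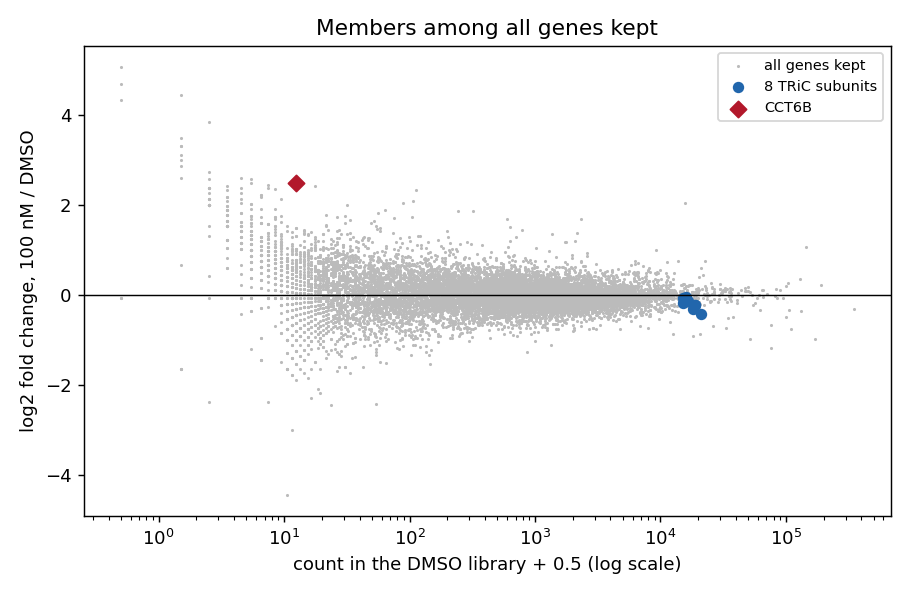
Log2 fold change at 100 nM pyrvinium against the count in DMSO (with 0.5 added, log axis) for the 12879 genes with at least 10 counts in a library, with the subunits and CCT6B marked. The subunits form a narrow group at high counts just below 0, and CCT6B lies at the upper edge of the genes with few counts.

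Relative to CCT6A within the same library, a comparison that needs no library scaling, CCT6B was 3.84 times its DMSO ratio at 50 nM (1.98 to 8.03) and 7.26 times at 100 nM (3.91 to 14.7). On the log2 scale these ratios are 1.94 and 2.86, and the ratio of 100 nM to 50 nM is 0.92 (0.35 to 1.51). Both genes contributed to the shift, CCT6B with more counts and CCT6A with fewer. The log2 ratio of CCT6B to each of the 8 subunits lay between 1.77 for CCT8 and 1.96 for CCT2 at 50 nM, with 0.81 as the lowest interval bound. At 100 nM it lay between 2.58 for CCT8 and 2.96 for TCP1, with 1.69 as the lowest bound. These ratios restate the contrast on which the set was selected.

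CCT6A nevertheless supplied nearly all zeta subunit counts. CCT6B made up 0.0661% of the counts of both genes in DMSO (exact interval 0.0341% to 0.115%). With 50 nM the share was 0.253% (0.182% to 0.343%), and with 100 nM it was 0.478% (0.375% to 0.600%). The DMSO interval overlapped neither of the others, and those of 50 nM and 100 nM were separate. Corrected for counted length, CCT6A exceeded CCT6B by 1077 times in DMSO, 281 times at 50 nM and 148 times at 100 nM.

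The genes beside the members did not all follow them. The gaps between CCT6A and PSPH and between CCT6B and ZNF830, divergent neighbours, are shown because a member and a neighbour share each. For CCT6A, of 109 bases in the gap, the 80 next to its first counted base are given. The rest of that gap lies in annotated exons and is left out. The letters CCAAT are in capitals, and for CCT6B all 20 bases are given.
CCT6A, chr7:56119298-56119377, plus strand, hg19: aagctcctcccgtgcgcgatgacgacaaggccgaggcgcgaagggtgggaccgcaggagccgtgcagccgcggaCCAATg
CCT6B, chr17:33288529-33288548, minus strand, hg19: gggcgaggcatgataacgtc
ZNF830, which encodes a zinc finger protein and starts 20 bases from CCT6B, had 514, 545 and 577 counts in the DMSO, 50 nM and 100 nM libraries. A log2 fold change of 0.11 was found at both doses, with intervals of -0.06 to 0.29 and -0.07 to 0.28 that included 0, whereas that of CCT6B was 1.76 and 2.50. PSPH, the phosphatase of serine synthesis, had 1774, 2140 and 2726 counts, and log2 fold changes of 0.30 and 0.56 (0.47 to 0.65 at 100 nM), above DMSO where CCT6A was below. SUMF2, which begins 234 bases past CCT6A on the same strand, had 2060, 2762 and 3170 counts, and log2 fold changes of 0.45 and 0.56. At the TCP1 locus the neighbours differed. MRPL18, which encodes a protein of the mitochondrial ribosome, had 2565, 2237 and 1995 counts and log2 fold changes of -0.17 and -0.42, near those of TCP1. ACAT2, an acetyl-CoA acetyltransferase gene whose span overlaps that of TCP1 by 558 bases on the opposite strand, had 1994, 2286 and 2370 counts and log2 fold changes of 0.23 and 0.19. The strand setting of the counting is not given in the sources used here, so TCP1 and ACAT2 reads in the overlap cannot be told apart. Within the span of CCT3, on the same strand, the gene with Entrez identifier 100505747 had 90, 79 and 112 counts, and TSACC, whose span overlaps that of CCT3 by 1091 bases on the opposite strand, had 4, 10 and 12 counts. The division of CCT3 reads with these genes is therefore also uncertain, though CCT3 itself had at least 16884 counts. ATPSCKMT, which lies 267 bases from CCT5 on the opposite strand, had 473, 482 and 461 counts, and its log2 fold change at 100 nM was -0.10 (-0.28 to 0.09). The small nucleolar RNA genes inside TCP1 (SNORA20 and SNORA29) and CCT6A (SNORA15) had 1 to 20 counts per library. CCT2, CCT4, CCT7 and CCT8 had no counted gene within 1000 bases.

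Exact copies of subunit sequence elsewhere in the genome were searched in windows of one read length. CCT8 had the most, with 125 of 1821 windows of 75 bases (6.86%) found exactly at another locus, followed by CCT6A with 37 of 2590 (1.43%), TCP1 with 34 of 2379 (1.43%), CCT5 with 28 of 3329 (0.84%) and CCT4 with 2 of 2260. CCT2, CCT3, CCT6B and CCT7 had 0. The counts of the pseudogene CCT6P3 were 338, 292 and 334 in the DMSO, 50 nM and 100 nM libraries, a log2 fold change at the higher dose of -0.08 (-0.30 to 0.15). Those of CCT6P1 were 145, 138 and 148, a log2 fold change of -0.03 (-0.37 to 0.31). Within 3 mismatches, 10.5% of CCT6A windows matched CCT6P3 and 9.03% matched CCT6P1, so the division of reads among these loci is uncertain. Against the counts of CCT6A, those of both pseudogenes were few. CCT8L2, an intronless relative, was at 0 in all libraries.

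Promoters were read because genes of the cytosolic folding machinery are known targets of heat shock factor, which binds inverted repeats of the letters GAA. RefSeq promoters (250 bases before to 50 after the start, GRCh38.p14) were present for 8 of the 9 genes and 27305 genes in all, and CCT6A was not among them. A gene with several annotated starts was counted if any of its promoters matched. On either strand, GAANNTTC was in promoters of 8.2% of all genes, including TCP1 and CCT2. TTCNNGAA was in promoters of 9.5% of all genes, including CCT4 and CCT6B. The 30-base stretches that hold these matches follow, with the motif in capitals.
TCP1, chr6:159789815-159789844, minus strand, GRCh38.p14: tcgtttgaggcGAAGGTTCaacctcttccc
CCT2, chr12:69585789-69585818, plus strand, GRCh38.p14: cccggagcgaaGAAATTTCtagtgtgggac
CCT4, chr2:61888607-61888636, minus strand, GRCh38.p14: cccgacgccggcgccgctTTCTGGAAggtt
CCT6B, chr17:34961679-34961708, minus strand, GRCh38.p14: aacggttgtacTTCGCGAAtggagattcta
Genes with such a match thus included CCT6B, with the highest log2 fold change of the set at 100 nM, and TCP1, with the lowest. CCAAT was in promoters of 5 of the 8 genes (TCP1, CCT2, CCT3, CCT6B and CCT8) and of 39.7% of all genes. In CCT2 it lay in the promoter of another start than GAANNTTC. TGATGNAA, the amino acid response element, was in promoters of 0 of the 8 genes and of 4.5% of all genes. TGACGTCA, the cyclic AMP response element, was in promoters of 0 of the 8 genes and of 2.2% of all genes. The CCT6B match of TTCNNGAA begins at -237 from its start, and ZNF830 starts 20 bases from CCT6B on the opposite strand. Which of these genes the letters belong to was not tested. A match describes the letters only.

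The partners of TRiC had medians nearer to 0 than the subunit median of -0.20. Of the 6 prefoldin genes, 4 were lower at 100 nM and 2 had an interval below 0 (PFDN1 at -0.13 and PFDN6 at -0.38), near the 25.5% of all genes. The median log2 fold change of the 6 was -0.09. PFDN4 was highest at 0.08. Of the 3 prefoldin-like genes, URI1 (0.11) and UXT (0.13) had intervals above 0, beside 23.8% of all genes, and PDRG1 was at -0.13. Of the phosducin-like cofactors, PDCL2 was at 0 counts, and none of the other 3 had an interval that excluded 0 at 100 nM, with values from -0.12 for PDCL3 to 0.05 for PDCL. The 6 tubulin folding cofactors had a median of -0.02. The interval of TBCE (0.20) lay above 0, beside 23.8% of all genes. Those of TBCC (-0.27) and ARL2 (-0.13) lay below, beside 25.5% of all genes.

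Most transcripts of the main TRiC substrates, actin and tubulin, were lower at 100 nM. Of 11 actin and tubulin genes, 9 had an interval below 0, beside 25.5% of all genes and 43.0% of those with at least 10000 counts, and 0 had one above. The intervals of ACTG1 and TUBB2A (-0.51, interval -1.07 to 0.03) included 0, and the median log2 fold change was -0.25, compared with -0.09 at 50 nM. TUBA4A, an alpha tubulin gene, went from 1002 counts in DMSO to 650 at 50 nM and 511 at 100 nM. It was the only one lower by 1.5-fold or more at 100 nM, where its value was -1.03 (-1.19 to -0.88). Other values were smaller, with TUBB at -0.30, TUBA1B at -0.17, ACTB at -0.06 and ACTG1 at -0.0005, less than the 0.003 by which other library scalings moved log2 values. Of 12 other known substrates, 6 had an interval below 0 (25.5% of all genes) and 3 above (23.8% of all genes), with a median of -0.07. CCNE1, which encodes cyclin E1, had 852, 575 and 533 counts and was lowest, at -0.74 (-0.89 to -0.58), and FZR1, an activator of the anaphase-promoting complex, was highest at 0.21.

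Other chaperone genes were lower at 100 nM too, some by more than any TRiC subunit. Of 8 genes of the cytosolic heat shock group, 7 had an interval below 0, beside 25.5% of all genes and 43.0% of those with at least 10000 counts. Of the 8, 4 were lower by at least 1.5-fold, beside 4.29% of all genes. Those 4 were HSPH1 (-0.88), DNAJA1 (-0.86), HSPA8 (-0.76) and DNAJB1 (-0.66), which encode chaperones of the HSP70 system and its cofactors. The median of the group was -0.57, and -0.35 at 50 nM. HSP90AA1 was at -0.48, HSPA4 at -0.36 and HSP90AB1 at -0.07. HSF1, the transcription factor of the heat shock response, was at 0.14 (0.03 to 0.24). The mitochondrial chaperonin, which has the same barrel architecture without the same subunits, was lower in both genes, HSPD1 at -0.19 and HSPE1 at -0.41. Both intervals lay below 0, beside 25.5% of all genes and 43.0% of those with at least 10000 counts. Of the chaperonin-like genes of Bardet-Biedl syndrome, MKKS (-0.18) had an interval below 0, as 25.5% of all genes had. The intervals of BBS10 (-0.08) and BBS12 (-0.40) included 0.

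**Figure D4:**
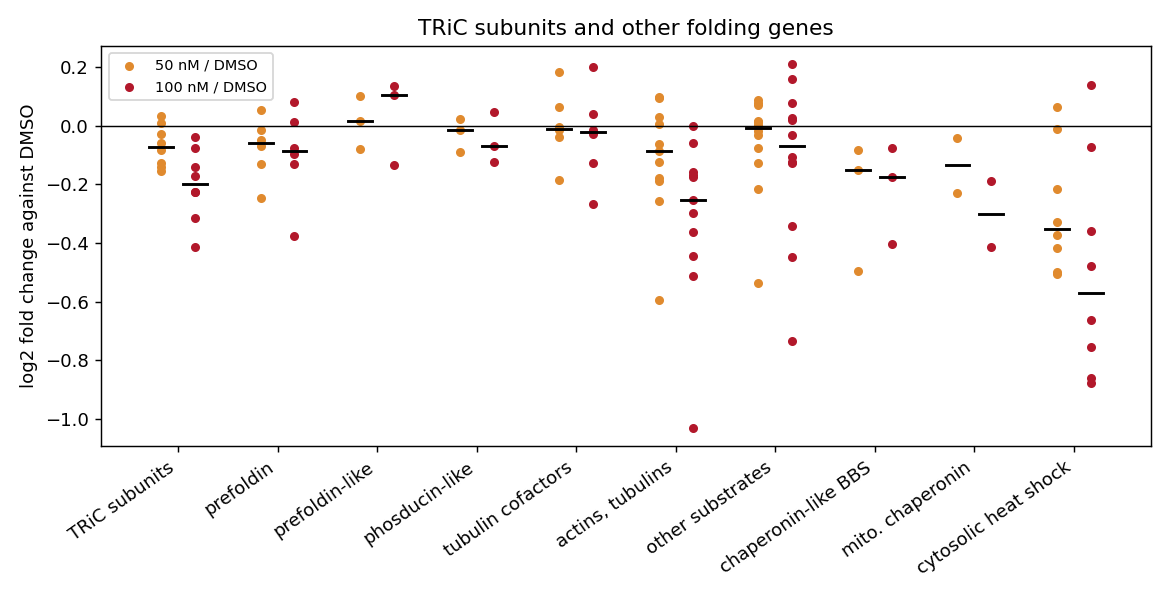
Log2 fold change at 50 nM (orange) and 100 nM (red) pyrvinium against the shared DMSO library for each gene of the TRiC subunits, their partners and substrates and other chaperone groups, 1 point per gene with black bars at the group medians. At 100 nM the subunit median is -0.20, the actin and tubulin median -0.25 and the heat shock median -0.57.

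The genes nearest to CCT6B and to the subunits in both log2 fold changes were identified over the 3 libraries, by Euclidean distance. Among the 10620 genes that reached 50 counts in every library, TSC22D3, a glucocorticoid-induced leucine zipper gene, was nearest to CCT6B at a distance of 0.19, with 112, 346 and 592 counts. NLRP12, which encodes a myeloid NOD-like receptor, followed at 0.51 with 107, 288 and 478 counts, and CHAC1, a glutathione-degrading enzyme gene of the stress response, at 0.61 with 88, 219 and 382 counts. All 3 had more counts in DMSO than CCT6B. Among the 4719 genes that reached 1000 counts in every library, RNF10, MPHOSPH6 and ATP13A3 were nearest to the subunit median, at distances of 0.0005, 0.003 and 0.0055. RNF10, a ubiquitin ligase gene, had 2444, 2279 and 2219 counts.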

How the data were processed

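RNA was isolated from Molm13 cells after 6 h with DMSO, 50 nM or 100 nM pyrvinium, and a strand-specific poly(A) library was made and sequenced as 75-base paired reads for each condition. Alignment to hg19 was done by the authors using Rsubread. The deposited counts are whole numbers of reads per Entrez gene, not normalized, in 1 featureCounts table per library. The strand setting, the treatment of reads at several loci and the tool versions are not given in the sources used here. A further table of the authors' own EBSeq comparisons, with posterior probabilities, fold changes and 4 columns of mean values, was not used. Groups were taken from the sample titles.

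TMM scaling was done in edgeR 4.0.16 under R 4.3.3 on all genes counted. Genes that reached 10 counts in any library were then kept for the comparisons with all genes. For log2 fold changes, 0.5 was added to each count. Their 95% intervals are Clopper-Pearson intervals of the count ratio, those of levels are exact Poisson, and those of ratios between genes are exact conditional intervals without added counts (scipy 1.17.1). All cover counting error only, because reads are not independent molecules and there is 1 library per condition, so no test was made. No difference on this count scale has a replicate error. Intervals were tried on simulated Poisson counts without variation between libraries, in which 95.6% of 12879 genes' intervals held the value drawn. That simulation holds only the counting error that the intervals assume. It therefore checks the computation and not the error between libraries. A total of 22677038 to 24075123 counts per library makes 3 counts equal to 0.0656 to 0.0697 RPKM for CCT6B. Sequences were compared with Biopython 1.88.

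The genes named are all members, genes of the folding lists (prefoldin, prefoldin-like, phosducin-like, tubulin cofactors, actins and tubulins, other substrates, chaperonin-like, mitochondrial chaperonin and heat shock), counted genes within 1000 bases of a member, copies of a member, and the 3 nearest genes in pattern. Examples from a list include its highest and lowest gene. Members and lists were chosen with earlier results of these data known. Alternatives were scaling by total counts, by TMM after removal of genes of the mitochondrial genome or by DESeq2 1.42.0, other added counts, filters and fold thresholds, and the addition of pseudogene counts to CCT6A.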

Additional observations from a re-analysis of the deposited data

How the results depend on the processing

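Of 81 values recomputed under alternatives, 66 moved by less than their limits, 15 moved further and 0 changed direction. Numbers of genes and CCT6B shares have no direction, so only log2 values could have changed it. For the log2 fold change of CCT6B the limit was its wide counting interval, which other scalings could hardly have left. The subunit median had a limit taken from the subunits' counting intervals, which other scalings could hardly have left either. The ratio of CCT6B to CCT6A had its own wide counting interval as limit. Values that stayed within these limits therefore tell little. With 5 counts added, the log2 fold change of CCT6B was 1.47 at 50 nM and 2.14 at 100 nM. The numbers of all genes lower and higher by 1.5-fold depended on the filter. With genes of at least 1 count they were 1492 and 2038 at 50 nM, 1603 and 2537 at 100 nM, and 1517 and 1852 between the doses, and with genes of at least 50 counts they were 122 and 202, 282 and 466, and 53 and 103. They were 402 and 613, 553 and 982, and 284 and 452 with at least 10 counts, and the filter sets how many genes are counted. With a smaller threshold, 80% of the DMSO level in place of a 1.5-fold decrease, the subunits lower at 100 nM numbered 1 in place of 0. Per kilobase, the CCT6B share of both zeta genes was 0.355% at 50 nM and 0.669% at 100 nM, because CCT6B has the shorter counted length. Other scalings moved log2 values by at most 0.0032. No paired analysis was possible because each condition has 1 library, and no library could be left out for the same reason. Depth limits CCT6B most, with 12 counts in DMSO.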
